A study of Mus musculus with 9 samples.

Results

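Semaphorins, netrins, slits and ephrins, with the plexin, neuropilin, Unc5, Robo and Eph receptors that bind them, were examined in cultured mouse synovial fibroblasts (SFs). The members were all protein-coding genes that carry these family names, 68 of the 49548 genes in the tables. The rule for membership used the gene names and no measured value. There were 20 semaphorins, 11 plexins and neuropilins, 8 netrins and netrin receptors, 7 slits and Robo receptors, 8 ephrins and 14 Eph receptors.

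The SFs came from ankle joints of 8-week-old mice of a CBA C57BL/6J background, and CD45+ cells, which are leukocytes, had been depleted at passage 1. The 3 groups were SFs of wild-type (WT) mice, SFs of hTNFtg mice, which carry a human TNF transgene and develop chronic polyarthritis, and SFs of hTNFtg mice treated with infliximab, an antibody that neutralizes human TNF, at 1 µg/mL for 48 hours. Both hTNFtg groups carried the transgene, and untreated means no treatment in the sample labels but vehicle in the methods, for WT as for hTNFtg. Each group had 3 libraries, which the methods call biological replicates of cultured SFs, and how many mice were behind a library is not given in the sources used here. RNA was measured by 3′ mRNA sequencing, which reads each transcript near its 3′ end. Values are normalized counts, which the authors scaled by library and rounded to whole numbers, and wherever 3 values follow a group's name they are in the order of replicates 1, 2 and 3.

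These families were named for steering growing axons, which they do by attracting or repelling the growth cone, and they act on the cytoskeleton and adhesion of many other cells. Secreted class 3 semaphorins bind neuropilins, which signal together with A-type plexins, while most membrane-bound semaphorins bind plexins directly. Netrins attract through Dcc and repel through Unc5 receptors, slits signal through Robo receptors, and ephrins, which stay attached to the cell surface, bind Eph receptor tyrosine kinases on neighbouring cells and sort cells at tissue boundaries.

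The libraries held an estimated 613226 to 9012548 reads on genes. The shallowest was hTNFtg replicate 1, where 1 read was worth 6.23 normalized counts, so that a gene of 3 reads stood at 18.7. In the other 8 libraries 3 reads came to 1.60 to 3.31 normalized counts, and values at or below 3 reads are called the floor here. Summed over 10 fibroblast markers such as Col1a1, Pdpn and Prg4, the 9 libraries reached 31824 to 44872. Markers of macrophages and leukocytes, 10 genes with Lyz2 the most abundant, summed to 198 to 654 in WT, 3117 to 7678 in hTNFtg and 1976 to 3809 in infliximab-treated SFs. Endothelial markers summed to at most 15 in any library, and Tie1 and Robo4 were at 0 in all 9. Schwann cell and glia markers, of which Ncam1 was higher and S100b lower in every hTNFtg library than in every WT library, summed to 257 to 301 in WT, 648 to 1041 in hTNFtg and 464 to 899 in treated SFs. Chondrocyte markers, mostly Sox9, summed to 1242 to 2066, 227 to 366 and 337 to 718 in the same order. Sox9 had 1160, 1761 and 1939 in WT and 174, 272 and 179 in hTNFtg SFs. Col2a1, at 60, 51 and 94 in WT and 75, 88 and 37 in hTNFtg SFs, overlapped. Neuron markers, mostly Tubb3 in the hTNFtg libraries, summed to 134 to 185, 136 to 588 and 248 to 351. Mural cell markers summed to 254 to 415, 263 to 467 and 497 to 563. Of these, Mcam was higher and Rgs5 lower in every hTNFtg library than in every WT library. Hepatocyte markers summed to at most 44 except in treated replicate 3, which reached 750 and was also the highest of the 9 libraries for Slit2, Sema7a and Unc5b. What these cell types or markers contributed to the differences below was not tested, and in a bulk sample fewer cells of a type and less RNA per cell cannot be told apart.

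The families were not equally present in SFs. Of the 68 members, 34 were above the floor in all 9 libraries and another 11 in every library except hTNFtg replicate 1. A mean of at least 10 in at least 1 group was reached by 46 members, and 22 stayed below it in every group. Dcc, the attractive netrin receptor, the endothelial Robo4 and Epha8 were at 0 in all 9 libraries. Epha6, Ephb1, Ntn5 and Slit1 did not exceed the floor in any library. The member with the highest mean was Ephb3, at 1532 over the 9 libraries, followed by Unc5b at 841.8, Nrp2 at 397.9, Plxnb2 at 338.8 and Epha1 at 336.4.

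The first comparison asked which members differed between SFs of arthritic hTNFtg mice and WT SFs. Members were called raised or lowered by the thresholds that the study applied, P under 0.05 before adjustment and a difference of 1 or more on the log2 scale. Here P came from limma, run on log2 normalized counts after 1 was added to each. Of the 65 members that could be tested, 7 were raised (10.8%, against 3.35% of all 28522 genes tested) and 14 were lowered (21.5%, against 3.04%). Over genes with a mean of at least 10 in these 6 libraries, 6 of 44 members were raised, against 4.83% of all genes, and 12 were lowered, against 3.85%. The lowered genes included ephrins, Eph receptors, Unc5 receptors and several semaphorins, and the raised genes included Slit2, a neuropilin, a plexin and 4 semaphorins. The median log2 fold change over the 65 members was -0.32, or -0.10 with members at the floor set to their bounds, compared with 0.00 over all genes. After Benjamini-Hochberg adjustment over all genes Sema3c alone had an adjusted p under 0.05 with limma, against 0.480% of all genes, whereas edgeR on approximate reads gave 7 such members (against 3.23% of all genes) and array quality weights gave 17 (against 3.52%). Before adjustment 23 members had a P under 0.05, against 7.72% of all genes. In 11 members every hTNFtg library was above every WT library (16.9%, against 5.63% of all genes), and in 14 every one was below (21.5%, against 5.80%). Without hTNFtg replicate 1 the lowered count was 8 (against 2.99% of all genes), and without WT replicate 2 it was 7 (against 2.93%). Calls that ended without hTNFtg replicate 1 were those of Efna2, Efna5, Ephb2, Ephb6, Unc5b, Sema3b, Sema3f and Sema4b, and without WT replicate 2 those of Efna2, Epha3, Ephb6, Unc5b, Unc5c, Sema3f and Sema6d.

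**Figure D1:**
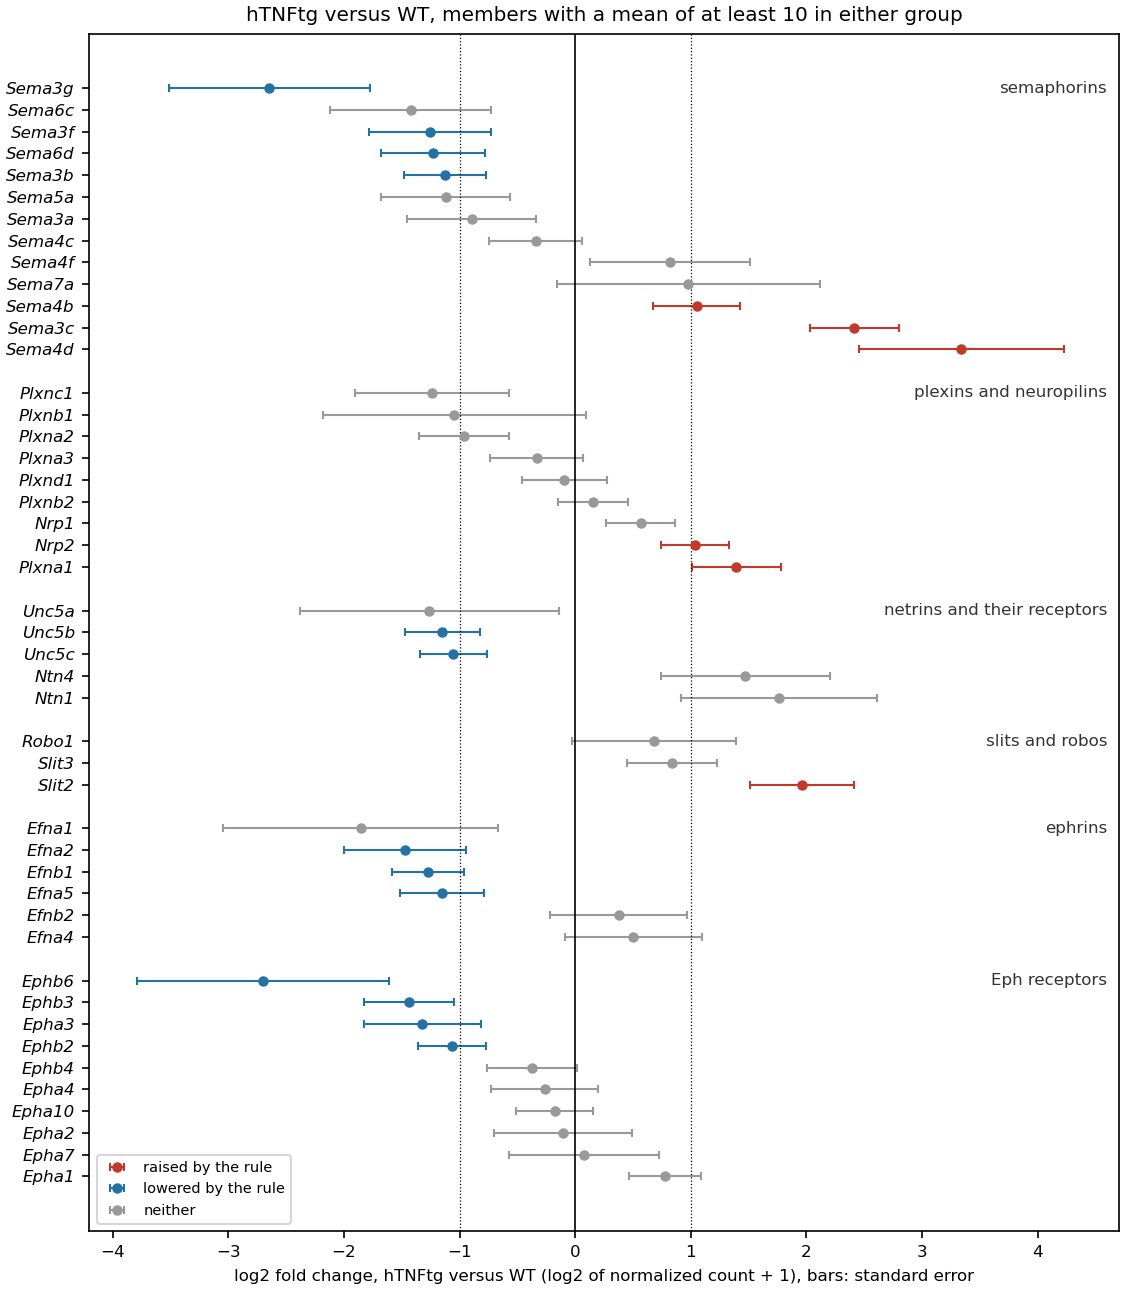
Log2 fold change of hTNFtg versus WT SFs, as log2 of 1 plus the normalized count, for the 46 members with a mean of at least 10 in WT or hTNFtg SFs, ordered by subfamily and value. Points are limma estimates, bars their standard errors, dotted lines mark -1 and 1, and the colours mark members raised, lowered or neither by the rule. Sema4d at 3.34, Sema3c at 2.41 and Slit2 at 1.96 lie farthest to the right, and Ephb6 at -2.70 and Sema3g at -2.65 farthest to the left.

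Among the secreted class 3 semaphorins, Sema3c rose in hTNFtg SFs while Sema3b, Sema3f and Sema3g fell. Sema3c, which binds neuropilins and guides neural crest cells into the outflow tract of the heart, had normalized counts of 31, 15 and 25 in WT, 131, 116 and 129 in hTNFtg and 87, 78 and 83 in infliximab-treated SFs. Every hTNFtg library was above every treated library, and every treated library above every WT library. The means were 23.7 ± 8.08 in WT, 125.3 ± 8.14 in hTNFtg and 82.7 ± 4.51 in treated SFs (SD, n = 3). The log2 fold change of hTNFtg versus WT was 2.41 (SE 0.39), with an adjusted p of 0.0235 in limma, and Sema3c kept its call without any 1 of the 6 libraries, at log2 fold changes of 2.13 to 2.63, although the adjusted p then was 0.0869 or more.

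Each of the 3 lowered class 3 members had limits. Sema3b, the most abundant semaphorin over the 9 libraries and a ligand first studied as a candidate tumour suppressor, stood at 194, 160 and 215 in WT, 69, 138 and 66 in hTNFtg and 166, 157 and 116 in treated SFs. The hTNFtg libraries lay below the WT libraries, with a log2 fold change of -1.13 (SE 0.35), and overlapped the treated ones. The call ended with array quality weights, at -0.58, and without hTNFtg replicate 1 or 3. Sema3f, a repellent that acts through Nrp2, was at 126, 132 and 165 in WT, 25, 53 and 145 in hTNFtg and 65, 55 and 117 in treated SFs. Here hTNFtg replicate 3 was as high as WT, the log2 fold change of -1.26 (SE 0.53) was -0.67 without hTNFtg replicate 1, and the call ended in 5 of the 6 ways of leaving out a library, with the replicate block, with a minimum mean of 10 and with edgeR. Sema3g counted 6, 20 and 9 in WT against 0, 1 and 2 in hTNFtg and 0, 5 and 1 in treated SFs. Its log2 fold change of -2.65 (SE 0.87) comes from few reads, was -3.13 to -1.40 under other settings, and rests on hTNFtg values under the 7.62 normalized counts that 3 reads give on average in these libraries.

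Membrane-bound semaphorins also moved in both directions. Sema4d, a ligand of Plxnb1 that lymphocytes and other leukocytes carry, had 0, 6 and 2 in WT, 25, 18 and 43 in hTNFtg and 17, 7 and 21 in treated SFs. All hTNFtg and treated libraries exceeded all WT libraries, at a log2 fold change of 3.34 (SE 0.88) for hTNFtg versus WT. At these low counts it was 2.61 without WT replicate 1, 4.01 without WT replicate 2 and 2.14 to 3.77 under the other settings, and the call held in each. The summed macrophage and leukocyte markers were likewise higher in every hTNFtg and treated library than in every WT library, and their part in the Sema4d values was not tested. Sema4b was at 70, 62 and 35 in WT, 137, 89 and 114 in hTNFtg and 97, 89 and 81 in treated SFs. The groups did not overlap between WT and hTNFtg, where the log2 fold change was 1.05 (SE 0.37), and the call was lost with a pseudocount of 5, with array quality weights and with edgeR. It also ended without hTNFtg replicate 1 and without WT replicate 3, at 0.75 in the latter. The 3′ end of Sema4b lies within 1000 bases of Cib1 on the other strand, whose counts were 134, 97 and 68 in WT and 206, 128 and 198 in hTNFtg SFs. The strand setting of the counting is not given in the sources used here.

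Sema6d, a class 6 transmembrane semaphorin, counted 58, 58 and 41 in WT, 31, 21 and 15 in hTNFtg and 40, 26 and 8 in treated SFs. All hTNFtg libraries were below all WT libraries, with a log2 fold change of -1.23 (SE 0.45). The Sema6d call ended without hTNFtg replicate 3, at -0.99, and without WT replicate 1 or WT replicate 2. Sema5a, which was not called, had 39, 25 and 19 in WT against 12, 11 and 12 in hTNFtg SFs, where the 12 of replicate 1 amounts to 2 reads. Its log2 fold change was -1.12 (SE 0.56), with an unadjusted limma P of 0.0691. Sema6b was raised by the rule at means below 10, with WT at the floor and 6, 9 and 2 in hTNFtg SFs, where the 6 of replicate 1 is 1 read, so no fold is given.

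**Figure D2:**
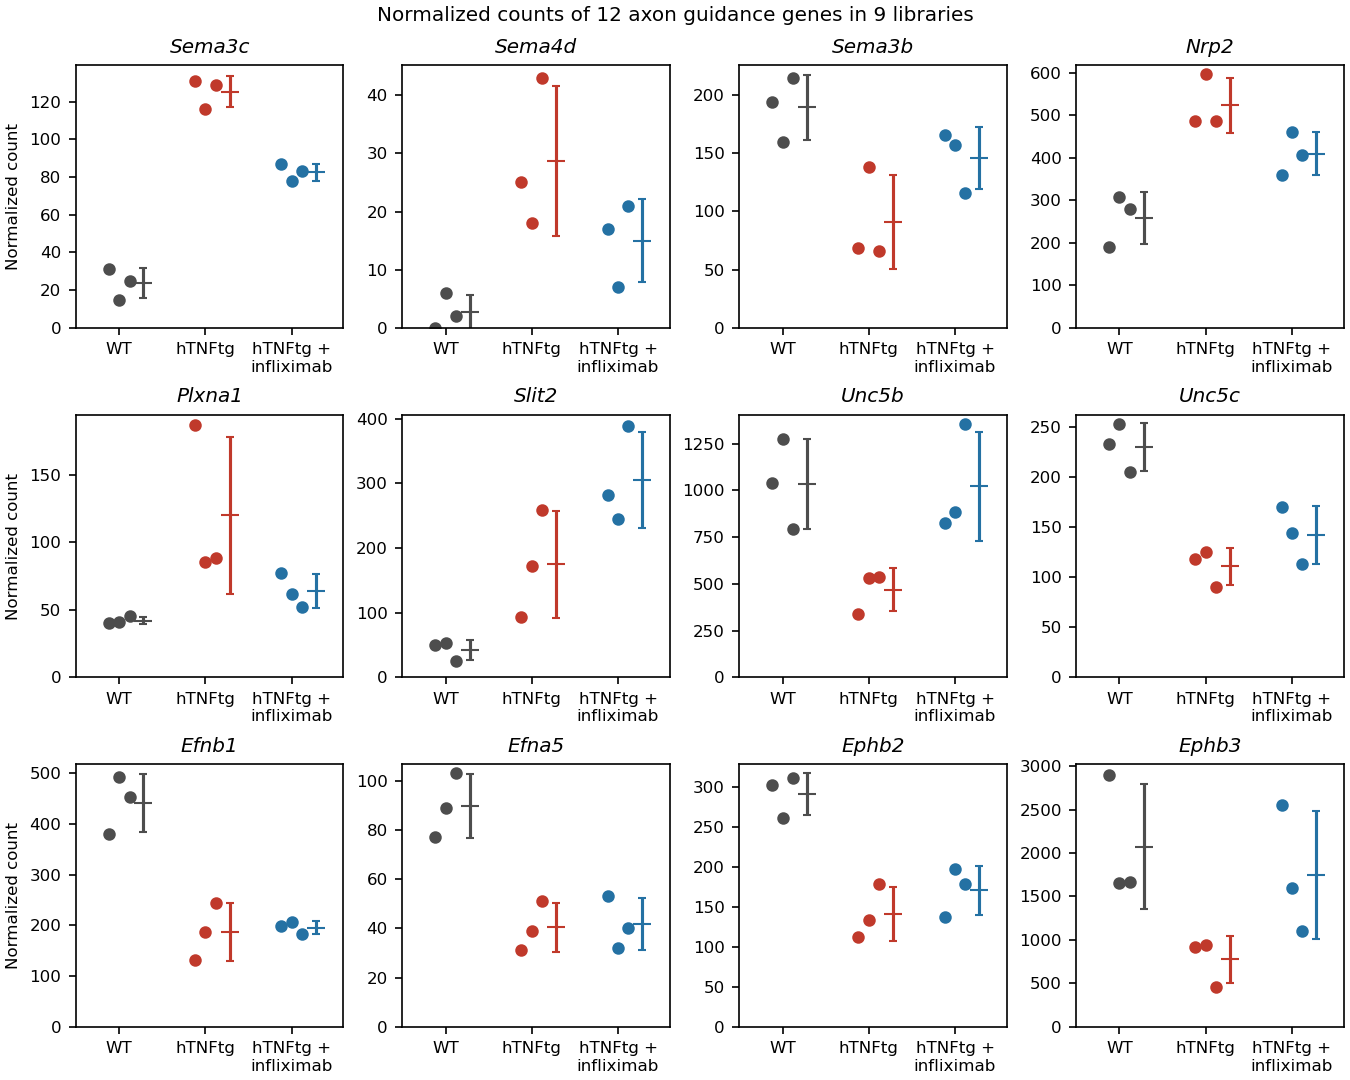
Normalized counts of 12 members in the 9 libraries, with WT in grey, hTNFtg in red and infliximab-treated hTNFtg SFs in blue. Each point is a library, in the order of the replicates, and the bar beside each group gives its mean ± SD (n = 3), cut at 0 for Sema4d in WT. Sema3c and Slit2 are higher in both hTNFtg groups than in WT, Efnb1 and Efna5 lower in both, and Unc5b is lower in untreated hTNFtg SFs than in either other group.

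Among the semaphorin receptors Nrp2 and Plxna1 rose in hTNFtg SFs. Nrp2, the neuropilin that binds Sema3c, Sema3f and Sema3g, had 191, 308 and 279 in WT, 486, 598 and 488 in hTNFtg and 361, 462 and 408 in treated SFs. The 3 groups did not overlap at all, with treated SFs in the middle, and the log2 fold change of hTNFtg versus WT was 1.03 (SE 0.30). The call ended with edgeR, without hTNFtg replicate 2 and without WT replicate 1, where the log2 fold change was 0.83. Nrp1, the receptor for Sema3a and a co-receptor for VEGF, stood at 120, 140 and 143 in WT, 168, 182 and 257 in hTNFtg and 123, 104 and 153 in treated SFs. Its hTNFtg libraries were above all others, but the log2 fold change of 0.57 (SE 0.30) was under the size the rule asks for.

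Plxna1, which signals for neuropilin-bound semaphorins, rose in hTNFtg SFs, at 40, 41 and 45 in WT, 187, 85 and 88 in hTNFtg and 77, 62 and 52 in treated SFs. No library of any group overlapped with another group, and the log2 fold change of hTNFtg versus WT was 1.39 (SE 0.39), or 1.03 without hTNFtg replicate 1. Its relative Plxna2 had 73, 46 and 64 in WT, 31, 29 and 31 in hTNFtg and 54, 38 and 45 in treated SFs, a log2 fold change of -0.96 (SE 0.39) for hTNFtg versus WT that did not reach the rule with limma, though edgeR called it lowered at -1.03. Plxnb2, the most abundant plexin, was at 254, 458 and 345 in WT, 367, 365 and 415 in hTNFtg and 188, 291 and 366 in treated SFs, and these values overlapped. Of the 11 plexins and neuropilins limma raised 2 (18.2%, against 3.35% of all genes) and lowered 0 (against 3.04%), and 3 had an unadjusted P under 0.05 (against 7.72%). Plxnc1 was lowered by the rule in other fits, at a log2 fold change of -2.09 with array quality weights (adjusted p = 0.0370) and -1.52 with edgeR (adjusted p = 0.235).

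Slit2 rose in hTNFtg SFs, where it was the raised member after Sema3c with the lowest p. Slit2 is a secreted ligand of the Robo receptors that repels axons and slows the migration of several cell types. Its normalized counts were 50, 53 and 25 in WT, 93, 172 and 259 in hTNFtg and 282, 245 and 388 in treated SFs. All hTNFtg libraries were above WT, and 2 of the treated libraries were above every untreated hTNFtg library. The log2 fold change of hTNFtg versus WT was 1.96 (SE 0.45), with an adjusted p of 0.102 in limma, and it kept its call without any 1 of the 6 libraries, at 1.62 to 2.35.

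The other slits and Robo receptors were lower in count. Slit3 had 31, 29 and 39 in WT, 69, 67 and 45 in hTNFtg and 44, 53 and 45 in treated SFs. The WT libraries were below the rest, at a log2 fold change of 0.84 (SE 0.39) for hTNFtg versus WT, which was not called. Robo1, the most abundant Robo receptor here, counted 18, 15 and 10 in WT, 62, 21 and 9 in hTNFtg and 32, 20 and 13 in treated SFs, with overlap between all groups. Robo2 and Robo3 stayed at or below 13 in every library. Summed over the 7 slits and Robo receptors, the libraries held 88 to 118 in WT, 236 to 320 in hTNFtg and 322 to 450 in treated SFs, and Slit2 made up most of the difference.

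The Unc5 receptors, which turn the netrin signal into repulsion and can trigger cell death when no netrin is bound, were lower in hTNFtg SFs for both abundant members. Unc5b had 1038, 1276 and 793 in WT, 336, 533 and 536 in hTNFtg and 826, 884 and 1354 in treated SFs. The untreated hTNFtg libraries lay below all others, while WT and treated SFs overlapped, and the log2 fold change of hTNFtg versus WT was -1.15 (SE 0.32). Unc5c stood at 233, 253 and 205 in WT, 118, 125 and 90 in hTNFtg and 170, 144 and 113 in treated SFs. All hTNFtg libraries were below WT, with a log2 fold change of -1.06 (SE 0.29), and the treated libraries overlapped with the untreated ones but not with WT. The Unc5c call ended with array quality weights, at -0.97, and without hTNFtg replicate 3, at -0.91.

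The netrins themselves were scarce, and limma did not call them. Ntn1 counted 2, 4 and 15 in WT, 25, 9 and 35 in hTNFtg and 18, 8 and 20 in treated SFs. Ntn4, a basement membrane netrin, had 9, 9 and 25 in WT, 12, 53 and 78 in hTNFtg and 30, 19 and 24 in treated SFs. Both overlapped between WT and hTNFtg, at log2 fold changes of 1.76 (SE 0.84) and 1.47 (SE 0.73), Ntn4 through hTNFtg replicate 1, whose 12 is 2 reads. Other fits called them raised in hTNFtg versus WT. Ntn4 had a log2 fold change of 1.83 with edgeR (adjusted p = 0.0158) and 1.97 with array quality weights in limma (adjusted p = 0.0478), and Ntn1 had 1.57 with edgeR (adjusted p = 0.283). With infliximab these 2 fits gave Ntn4 log2 fold changes of -1.09 (adjusted p = 0.653) and -1.06 (adjusted p = 0.178), and Ntn4 was the only member that either fit called lowered there. Unc5a had 0 in hTNFtg replicate 1 and 15 to 32 elsewhere, and since its 3′ end lies within Hk3 on the other strand its reads could not be told apart from those of Hk3 if strand was not used. Unc5d stayed at or below 14.

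Of the 8 ephrins 3 fell in hTNFtg SFs (37.5%, against 3.04% of all genes) and 0 rose (against 3.35%). Efnb1, a transmembrane ephrin whose loss causes skeletal malformation, had 380, 493 and 453 in WT, 131, 187 and 245 in hTNFtg and 199, 206 and 182 in treated SFs. All libraries of both hTNFtg groups were below all WT libraries, and both hTNFtg groups overlapped with each other. The means were 442.0 ± 57.3 in WT, 187.7 ± 57.0 in hTNFtg and 195.7 ± 12.3 in treated SFs (SD, n = 3), and the log2 fold change of hTNFtg versus WT was -1.27 (SE 0.31), which kept its call without any 1 library. Efna5, a lipid-anchored ephrin, showed the same order, with 77, 89 and 103 in WT, 31, 39 and 51 in hTNFtg and 53, 32 and 40 in treated SFs, and its log2 fold change was -1.15 (SE 0.36). Efna2 stood at 54, 102 and 74 in WT, 12, 28 and 52 in hTNFtg and 54, 47 and 83 in treated SFs. Untreated hTNFtg libraries were below WT, at a log2 fold change of -1.47 (SE 0.53), and WT and treated SFs overlapped. The log2 fold change of Efna2 was -0.94 without hTNFtg replicate 1 and -1.95 without hTNFtg replicate 3. Its call ended without hTNFtg replicate 1, WT replicate 2 or WT replicate 3. Summed over all ephrins, WT libraries held 589 to 766, hTNFtg libraries 224 to 465 and treated libraries 360 to 370.

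Eph receptors had the highest sum of all subfamilies in every library except hTNFtg replicate 3, where plexins and neuropilins reached 1572, with sums of 2638 to 3849 in WT, 1549 to 1725 in hTNFtg and 2313 to 3504 in treated SFs, and Ephb3 led it. Ephb3, a receptor for B-type ephrins, had 2899, 1654 and 1670 in WT, 916, 945 and 463 in hTNFtg and 2552, 1592 and 1099 in treated SFs. The untreated hTNFtg libraries were below all others, the treated and WT libraries overlapped, and the log2 fold change of hTNFtg versus WT was -1.44 (SE 0.39). Ephb2, a close relative with overlapping ligands, was at 302, 261 and 310 in WT, 112, 133 and 178 in hTNFtg and 137, 197 and 178 in treated SFs. Both hTNFtg groups were below WT and overlapped with each other, and the log2 fold change of hTNFtg versus WT was -1.06 (SE 0.29).

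The remaining lowered Eph receptors had fewer reads. Epha3 counted 31, 35 and 31 in WT, 12, 12 and 13 in hTNFtg and 21, 22 and 25 in treated SFs. The 3 groups did not overlap, and the log2 fold change of hTNFtg versus WT was -1.32 (SE 0.50), although the 12 of hTNFtg replicate 1 was under the floor of that library. Ephb6, a kinase-inactive receptor, had 50, 41 and 46 in WT, 0, 7 and 45 in hTNFtg and 33, 29 and 27 in treated SFs. Because hTNFtg replicate 3 matched WT, its log2 fold change of -2.70 (SE 1.09) rested on the other 2 libraries, was -1.10 with edgeR, and lost its call with the replicate block and in 5 of the 6 ways of leaving out a library. Epha5 was also lowered by the rule at means below 10, but its WT mean of 3.67 is below the mean floor of the hTNFtg libraries, 7.62, so a decrease could not be resolved.

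Not all Eph receptors were lower in hTNFtg SFs. Epha1 had 200, 226 and 227 in WT, 442, 255 and 463 in hTNFtg and 355, 360 and 500 in treated SFs. Both hTNFtg groups lay above WT, with a log2 fold change of 0.78 (SE 0.31) for hTNFtg versus WT that was under the size of the rule. The 3′ end of Epha1 lies within Zyx on the other strand, the gene of a focal adhesion protein, which counted 371, 434 and 441 in WT, 760, 479 and 949 in hTNFtg and 680, 687 and 951 in treated SFs. The reads of Epha1 and Zyx could not be told apart if strand was not used. Ephb4, the receptor of Efnb2, had 213, 234 and 202 in WT and 87, 212 and 249 in hTNFtg SFs and overlapped between them, as did Epha2, Epha4, Epha7 and Epha10.

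**Figure D3:**
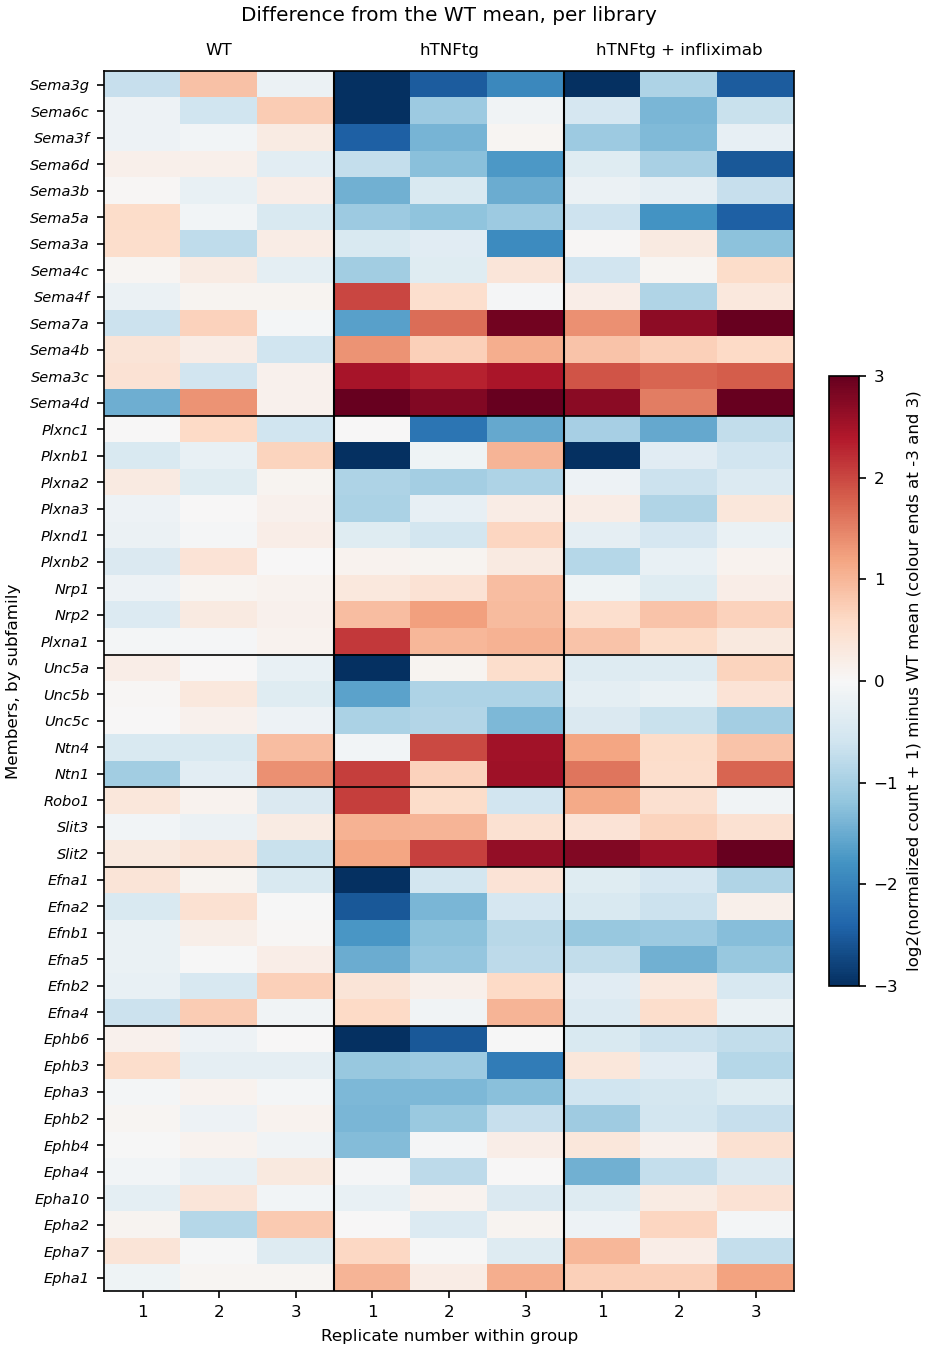
Difference of each library from the WT mean, as log2 of 1 plus the normalized count, for the 46 members with a mean of at least 10 in at least 1 of the 3 groups. Columns are the 9 libraries by group and replicate, rows the members by subfamily in the order of their hTNFtg versus WT change, and the colours end at -3 and 3, which 12 values exceed. Slit2, Sema3c and Sema4d are red in all 6 hTNFtg libraries, Efnb1 and Efna5 blue in all 6, and the dark blue cells of hTNFtg replicate 1 include the members at 0 in that library.

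The second comparison asked what infliximab changed in hTNFtg SFs. Of 65 members tested 3 were raised by the rule (4.62%, against 1.49% of all 28540 genes) and 0 were lowered (against 0.936%). With limma 0 members had a Benjamini-Hochberg adjusted p under 0.05, as did 0% of all genes, 6 members had an unadjusted P under 0.05 (against 3.59% of all genes), and edgeR also gave 0 members after adjustment (against 0.578% of all genes). The raised members were Unc5b, Efna2 and Ephb3. Every treated library was above every untreated one in 5 members (7.69%, against 3.99% of all genes) and below in 4 (6.15%, against 3.44%). This comparison and the first share the untreated hTNFtg libraries, so a low value in those libraries lowers the first and raises the second.

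Values per library for these 3 members are given above with the first comparison. Unc5b was higher in every treated library than in every untreated one, at a log2 fold change of 1.12 (SE 0.32). For Ephb3 the libraries did not overlap either, and the log2 fold change was 1.16 (SE 0.39). Both calls were lost with array quality weights, and leaving out 1 library ended that of Unc5b in 2 and that of Ephb3 in 3 of 6 ways. Efna2 overlapped, since treated replicate 2 at 47 was below untreated replicate 3 at 52, and its log2 fold change of 1.16 (SE 0.52) was lost under 5 of the 6 ways of leaving out a library, with a pseudocount of 5, with a minimum mean of 10 and with edgeR. Without any 1 of the treated libraries, or without hTNFtg replicate 1, 1 member was raised (against 1.07% to 1.70% of all genes). Without hTNFtg replicate 3 there were 6 (against 2.59%).

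With limma none of the members raised in hTNFtg SFs was called lowered with infliximab, while edgeR and array quality weights each called Ntn4 raised in hTNFtg SFs and lowered with infliximab. Plxna1 had a log2 fold change of -0.82 (SE 0.38) and Nrp1 of -0.66 (SE 0.30), both with an unadjusted P under 0.05 in limma. For Sema3c it was -0.59 (SE 0.29) and for Nrp2 -0.35 (SE 0.27). The treated libraries of these 4 members were all below the untreated ones. Slit2, in contrast, was higher in treated than in untreated SFs by the fitted values, at a log2 fold change of 0.89 (SE 0.37), which was under the size of the rule, and its libraries overlapped through untreated replicate 3. Epha3 and Plxna2 did not overlap and were higher in treated SFs, at 0.83 (SE 0.57) and 0.56 (SE 0.40), and neither was called.

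The third comparison set infliximab-treated hTNFtg SFs against WT SFs, and it shares libraries with both others. Of 64 members tested 6 were raised (9.38%, against 3.86% of all 28243 genes) and 6 were lowered (9.38%, against 2.95%). Slit2, Sema3c and Efnb1 had an adjusted p under 0.05 in limma (against 0.740% of all genes), and 21 members had an unadjusted P under 0.05 (against 11.9%). Every treated library was above every WT library in 12 members (18.8%, against 7.14% of all genes) and below in 14 (21.9%, against 7.07%). Among the 3 members with an adjusted p under 0.05 in limma, the log2 fold change was 2.85 for Slit2 (SE 0.31, adjusted p = 0.0109), 1.82 for Sema3c (SE 0.31, adjusted p = 0.0362) and -1.17 for Efnb1 (SE 0.18, adjusted p = 0.0265). All 3 adjusted p-values exceeded 0.05 when any 1 library was left out, at 0.0870 to 0.342 for Slit2, whose log2 fold change was then 2.52 to 3.04.

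Further semaphorins stood apart from WT in treated SFs. Sema7a, a lipid-anchored semaphorin that binds Plxnc1 and integrins, had 1, 4 and 2 in WT, 0, 9 and 22 in hTNFtg and 7, 19 and 60 in treated SFs. The treated libraries were above WT but spread widely, and the log2 fold change was 2.78 (SE 0.77) for treated versus WT. Sema4d was at 2.41 (SE 0.79) in the same comparison, a call that the replicate block ended. Sema6b and Efna3 were raised at means below 10, Sema6b by at least 2.38-fold. Lower in treated SFs than in WT were Sema3g at -2.31 (SE 0.78), Sema5a at -1.62 (SE 0.55), Sema6d at -1.29 (SE 0.51) and Efna5 at -1.11 (SE 0.26). Leaving out 1 library ended the call of Sema6d in 5 of 6 ways, with -0.66 without treated replicate 3, that of Sema5a in 4, of Sema3g in 3, of Sema4d in 2 and of Efna5 in 1. The lowered count was 2 without treated replicate 2 (3.125%, against 3.14% of all genes). It was 3 without WT replicate 1 or WT replicate 2 (4.69%, against 4.18% and 3.25%).

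Plxnc1, the Sema7a receptor, completed the lowered members. It had 31, 47 and 20 in WT, 31, 6 and 10 in hTNFtg and 15, 10 and 18 in treated SFs. The treated libraries were just below the WT libraries, at a log2 fold change of -1.09 (SE 0.42), and the call was lost with a pseudocount of 5, with all 9 libraries in 1 fit, with the replicate block and under 4 of the 6 ways of leaving out a library. Unc5b, Ephb3 and Efna2 were not called between treated and WT SFs, nor were Plxna1 at 0.57 (SE 0.25) and Nrp2 at 0.68 (SE 0.22), whose treated libraries were all above WT.

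Promoter sequences are shown for the 3 members with an adjusted p under 0.05 in limma in any comparison, Slit2, Sema3c and Efnb1, and for Sema4b, Ephb2 and Efna2, the called members whose promoter holds a match to the consensus of NF-kB, a transcription factor that TNF activates. Windows run from 250 bases before to 50 after the RefSeq start site on GRCm38.p6, 5′ to 3′ on the strand of the gene, and capitals mark the match (in Efna2 2 overlapping matches).
Slit2 chr5:47982905-47983204 plus strand: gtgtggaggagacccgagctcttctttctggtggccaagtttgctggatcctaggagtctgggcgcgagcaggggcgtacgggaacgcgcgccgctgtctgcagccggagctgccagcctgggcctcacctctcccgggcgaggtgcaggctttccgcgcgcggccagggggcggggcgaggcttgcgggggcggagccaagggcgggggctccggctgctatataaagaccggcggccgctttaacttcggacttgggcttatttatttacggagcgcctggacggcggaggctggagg
Sema3c chr5:17574566-17574865 plus strand: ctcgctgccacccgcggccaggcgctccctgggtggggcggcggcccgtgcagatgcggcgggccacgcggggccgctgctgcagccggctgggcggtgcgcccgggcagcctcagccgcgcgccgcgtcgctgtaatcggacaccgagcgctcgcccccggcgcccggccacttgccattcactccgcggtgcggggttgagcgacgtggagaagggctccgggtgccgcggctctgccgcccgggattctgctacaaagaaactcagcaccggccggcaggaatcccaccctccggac
Efnb1 chrX:99135811-99136110 plus strand: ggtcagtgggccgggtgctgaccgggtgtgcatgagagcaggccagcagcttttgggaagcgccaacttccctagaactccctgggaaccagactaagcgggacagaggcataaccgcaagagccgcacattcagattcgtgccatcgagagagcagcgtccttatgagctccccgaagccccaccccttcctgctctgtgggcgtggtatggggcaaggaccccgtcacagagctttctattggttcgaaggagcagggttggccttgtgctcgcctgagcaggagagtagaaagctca
Sema4b chr7:80186620-80186919 plus strand: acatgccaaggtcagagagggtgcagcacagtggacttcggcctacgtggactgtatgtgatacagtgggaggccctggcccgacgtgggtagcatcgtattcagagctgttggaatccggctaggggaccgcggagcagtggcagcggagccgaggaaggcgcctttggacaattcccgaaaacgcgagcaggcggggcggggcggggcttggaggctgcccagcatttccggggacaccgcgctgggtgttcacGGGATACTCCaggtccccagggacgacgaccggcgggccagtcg
Ephb2 chr4:136835963-136836262 minus strand: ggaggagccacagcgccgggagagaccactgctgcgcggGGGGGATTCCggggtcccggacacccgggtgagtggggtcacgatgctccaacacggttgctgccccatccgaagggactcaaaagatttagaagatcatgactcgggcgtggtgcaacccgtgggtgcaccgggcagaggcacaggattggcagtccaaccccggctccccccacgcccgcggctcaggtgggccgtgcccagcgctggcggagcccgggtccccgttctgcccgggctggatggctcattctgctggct
Efna2 chr10:80179232-80179531 plus strand: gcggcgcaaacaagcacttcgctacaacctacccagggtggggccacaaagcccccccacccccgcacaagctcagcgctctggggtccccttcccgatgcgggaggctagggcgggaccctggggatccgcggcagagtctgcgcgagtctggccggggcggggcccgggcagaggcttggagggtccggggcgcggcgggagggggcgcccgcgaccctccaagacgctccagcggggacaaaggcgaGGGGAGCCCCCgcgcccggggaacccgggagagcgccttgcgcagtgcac
A window was available for 58 of the 68 members. On either strand the NF-kB consensus matched in 6 of them (10.3%), against 8.46% of the 32851 windows of all genes. The AP-1 motif TGANTCA, which reads the same on both strands, matched in 1 (1.72%), against 7.81%. These shares were not matched for the content of G and C. Its median was 52.7% over the windows of all genes, and the windows shown above had 59.7% (Efnb1) to 75.7% (Sema3c). The windows of Slit2, Sema3c and Efnb1 held neither. A match describes letters only and was not tested as a binding site.

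Other genes of these pathways were followed through a list of 78 co-receptors, ligands, cytoplasmic mediators and proteases. In hTNFtg versus WT 6 of the 78 were raised and 4 lowered, against 3.35% and 3.04% of all genes, with infliximab 1 was raised and 0 lowered, against 1.49% and 0.936%, and in treated versus WT 5 were raised and 2 lowered, against 3.86% and 2.95%. An adjusted p under 0.05 in limma was reached by 1 of the 78 in hTNFtg versus WT, against 0.480% of all genes. With infliximab 0 reached it, against 0%, and in treated versus WT 2 did, against 0.740%. Flrt2, a membrane protein that binds Unc5 receptors, had 165, 148 and 124 in WT, 617, 503 and 327 in hTNFtg and 527, 381 and 558 in treated SFs. Both hTNFtg groups were above WT, at log2 fold changes of 1.68 (SE 0.32, adjusted p = 0.0476 in limma) and 1.73 (SE 0.21, adjusted p = 0.0170). Draxin, a netrin antagonist that binds Dcc, had 111, 36 and 59 in WT, 0, 9 and 4 in hTNFtg and 7, 17 and 10 in treated SFs. WT was above both other groups, at log2 fold changes of -4.09 (SE 0.87) and -2.43 (SE 0.47).

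Of the 54 cytoplasmic mediators 4 were raised (against 3.35% of all genes) and 1 was lowered (against 3.04%) in hTNFtg versus WT SFs. Rnd1, which plexins bind, had 95, 46 and 22 in WT, 162, 350 and 223 in hTNFtg and 205, 166 and 233 in treated SFs, a log2 fold change of 2.32 (SE 0.50) for hTNFtg versus WT. Kalrn, an exchange factor for Rac that acts downstream of Eph receptors in neurons, had 25, 22 and 19 in WT, 156, 76 and 64 in hTNFtg and 60, 59 and 92 in treated SFs. All hTNFtg libraries of both genes were above WT, and for Kalrn the log2 fold changes were 2.01 (SE 0.43) in untreated and 1.61 (SE 0.29, adjusted p = 0.0443 in limma) in treated SFs. Tiam1 was raised too, at 1.10 (SE 0.43), and Dpysl4 was the 1 mediator lowered, at low counts. In the list of co-receptors and ligands Lrig1 was raised, at 1.47 (SE 0.47), and Cntn2 and Ntng1 were lowered at low counts. With infliximab Rhoa rose by 1.10 (SE 0.45) on the log2 scale, at 1034, 1910 and 3194 in untreated and 3337, 3360 and 5574 in treated SFs.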

How the data were processed

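RNA of 9 libraries of cultured mouse SFs was sequenced with a 3′ kit on an Ion Proton. The authors mapped reads to mm10 with TopHat2 and Bowtie2, counted them per gene and normalized them with DESeq (versions and counting strand are not given in the sources used here), and in 8 libraries the deposited values are a score, that is, normalized counts without decimals. For hTNFtg replicate 1 the signal that the authors deposited could be turned back into whole reads. The tables also hold the authors' fold changes and p-values, which were not used, nor were 24 further per-sample columns of log2 and other normalized forms. The untreated hTNFtg libraries are the same in both tables and entered once.

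Reads per library were estimated by dividing each value by what 1 read was worth, so depths are approximate. Groups were compared with limma 3.58.1 (lmFit, eBayes with trend) in R 4.3.3 after adding a pseudocount of 1 and taking log2, using the 6 libraries compared and every gene above 0 in any of them, with Benjamini-Hochberg adjustment over all genes. The scripts were tested on simulated data. Alternatives were pseudocounts of 5 and 0.5, a mean of at least 10, rescaling by median ratios, array quality weights, all 9 libraries in 1 fit, a replicate block, edgeR 4.0.16 on approximate reads, and each library left out. Named with their values are called members with a mean of at least 10 in a group, the 2 most abundant members of each subfamily and members with a mean of at least 10 in either group whose hTNFtg and WT libraries did not overlap. Robo1, Ntn1, Ntn4, Unc5a and Ephb4 were added after their values were seen. Members and lists were chosen with earlier results of these data known. Sequences are from RefSeq (GRCm38.p6) and were matched by symbol. One further called gene of the pathway list is counted but not reported here by name.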

Additional observations from a re-analysis of the deposited data

How the results depend on the processing

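In hTNFtg versus WT the main counts were 7 members raised, 14 lowered and 1 with an adjusted p under 0.05. The last was 17 with array quality weights (against 3.52% of all genes), 3 with all 9 libraries in 1 fit (against 1.34%) and 7 with edgeR (against 3.23%). It was 0 with the replicate block (against 0% of all genes) and 0 without any 1 library (against 0.00358% to 0.163%). Leaving out each library in turn gave 5 to 8 raised (against 2.47% to 5.35% of all genes) and 7 to 13 lowered (against 2.44% to 4.52%). With infliximab (3 raised, 0 lowered), array quality weights and edgeR each lowered 1 member (1.54%, against 4.87% and 2.49% of all genes). With 1 library left out, 1 to 6 members were raised (against 1.07% to 2.59% of all genes) and 0 to 1 lowered (against 0.431% to 3.29%). In treated hTNFtg versus WT SFs (6 raised, 6 lowered, 3 adjusted), a minimum mean of 10 gave 3 raised (against 4.42% of 13470 genes) and 5 adjusted (against 3.62%). There edgeR gave 8 adjusted (against 4.67% of all genes) and the replicate block 0 adjusted (against 0%). Leaving out a library there gave 5 to 9 raised (against 3.46% to 4.93% of all genes), 2 to 6 lowered (against 2.66% to 4.18%) and 0 adjusted (against 0% to 0.00362%).

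For the 32 called fold changes of named members, 234 of 253 values under other settings kept direction and call, 19 lost the call and 0 reversed. With 1 library left out 134 of 192 kept it, 58 lost it and 0 reversed. Apart from the changes of setting itself, the causes were not tested. To compare replicate numbers across groups, each gene's group mean was subtracted from its log2 values, over 13600 genes. These deviations correlated between samples of the same number at -0.14 to 0.35 in hTNFtg versus WT, 0.07 to 0.27 with infliximab and -0.15 to 0.10 in treated versus WT SFs. Not every sample correlated best with its own number, and the samples were taken as sharing a number only. Depth limits members under 18.7 normalized counts in hTNFtg replicate 1.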
